A study of Mus musculus with 4 samples.

Results

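Transcripts of 10 Adamts genes, Adamts1, Adamts2, Adamts4, Adamts5, Adamts7, Adamts8, Adamts9, Adamts10, Adamts15 and Adamts20, were followed in muscle stem (satellite) cells. They were picked by symbol from the 55487 gene identifiers of the deposited tables, and each symbol matched 1 identifier. The cells came from skeletal muscle of 2 Tg:Pax7-nGFP mice, a line in which a nuclear green fluorescent protein marks cells that express Pax7. Minced muscle of each mouse was exposed during digestion either to a vivo-morpholino that blocks inclusion of Numb exon 6 or to a control morpholino. A vivo-morpholino is an antisense oligomer that enters cells without transfection, and Numb is an endocytic adaptor known to restrain Notch. Each mouse gave 1 library per morpholino, so there were 4 libraries and 2 per group, and all of them carried the transgene and a morpholino. The sources used here do not give the age or sex of the mice, or the sequence of the oligomers.

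ADAMTS proteins are secreted zinc metalloproteases with thrombospondin repeats. Many cut large proteoglycans of the extracellular matrix, such as versican and aggrecan, while others trim procollagens or bind fibrillin fibrils. They are made with an inhibitory prodomain that furin-like convertases remove, and TIMP3 is their best known tissue inhibitor. ADAMTS1 has been described as an activator of satellite cells that acts on the NOTCH1 receptor at the cell surface, in a pathway where NUMB also acts.

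The coding bases of the zinc-binding site are shown because each member carries this site, which is not particular to the family. Each stretch has 33 bases, 5′ to 3′ on the coding strand. Capitals mark the codons for the 3 histidines that hold the zinc, the catalytic glutamate codon that follows the leading histidine, and the codon that stands between the second and the last histidine.
Adamts1: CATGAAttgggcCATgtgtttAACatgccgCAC
Adamts4: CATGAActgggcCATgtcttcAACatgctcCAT
Adamts5: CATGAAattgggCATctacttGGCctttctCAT
Adamts8: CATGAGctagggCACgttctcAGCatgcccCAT
Adamts9: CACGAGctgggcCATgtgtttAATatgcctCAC
Adamts15: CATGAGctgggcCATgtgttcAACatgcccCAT
Adamts20: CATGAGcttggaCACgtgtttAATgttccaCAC
Adamts2: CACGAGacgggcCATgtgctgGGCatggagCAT
Adamts7: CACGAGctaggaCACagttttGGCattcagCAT
Adamts10: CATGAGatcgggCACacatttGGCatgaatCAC

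The stretches were found by an in-frame search on the coding strand for CAC or CAT, then GAA or GAG, 6 free bases, CAC or CAT, 15 free bases, and CAC or CAT. This pattern occurred in 95 of 21468 coding genes (0.443%), among them all 19 Adamts proteases of the annotation. The codon in capitals before the last histidine was GGC in 4 members (Adamts2, Adamts5, Adamts7 and Adamts10), AAC or AAT in 5 (Adamts1, Adamts4, Adamts9, Adamts15 and Adamts20) and AGC in Adamts8. Over the 45 pairs of members, 16 to 30 of the 33 bases were identical, and Adamts4 and Adamts15 were the closest pair. In each of the 10 genes the site was split by an intron, so the intervals run over 2 exons and the intron between them. On GRCm38, by GENCODE vM21, they lie at chr16:85799191-85799545 in Adamts1 (minus strand, exons 3 and 4), chr1:171253210-171253915 in Adamts4 (plus strand, exons 3 and 4), chr16:85878015-85887826 in Adamts5 (minus strand, exons 2 and 3) and chr9:30952721-30953378 in Adamts8 (plus strand, exons 3 and 4). They lie at chr6:92905285-92908493 in Adamts9 (minus strand, exons 8 and 9), chr9:30911255-30911690 in Adamts15 (minus strand, exons 2 and 3) and chr15:94353678-94355296 in Adamts20 (minus strand, exons 8 and 9). Those of the remaining members are chr11:50775403-50776134 in Adamts2 (plus strand, exons 7 and 8), chr9:90179456-90180640 in Adamts7 (plus strand, exons 7 and 8) and chr17:33538157-33538279 in Adamts10 (plus strand, exons 9 and 10).

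Identical long stretches between the transcripts of the members were sought, which leaves similarity with mismatches unmeasured. No window of 75 bases was shared between any pair of the 10 genes, so reads of that length without mismatches could be told apart between them. Windows were shared only with genes that overlap on the opposite strand, and the library method does not mark the strand. Among others, they made up 9.71% of the windows of Adamts9 (A730049H05Rik, at 11.5 TPM, and Gm15737), 7.50% of those of Adamts8 (Gm29724) and 0.769% of those of Adamts7 (Tbc1d2b). Part of the values of these 3 genes can therefore be signal of the opposite strand. Adamts1 and Adamts5 are neighbours on chromosome 16 on the same strand, 53.1 kb apart, and Adamts15 and Adamts8 on chromosome 9 on opposite strands, 20.1 kb apart.

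Adamts1 was the dominant protease of the family in all 4 libraries. Levels of different genes are compared in TPM, a unit that corrects for the length of the transcript. From here on, paired values give the control library and then the Numb exon 6 library of a mouse. Adamts1 stood at 331 and 417 TPM in mouse 1, and at 347 and 361 TPM in mouse 2. It supplied 51.8% to 61.4% of the summed TPM of the 19 Adamts proteases, and the 10 members together 98.4% to 98.9%. Adamts4, a major aggrecanase, followed at 101 and 154 TPM in mouse 1 and 170 and 183 TPM in mouse 2. Adamts10, which binds fibrillin microfibrils, stood at 52.8 and 79.4 TPM in mouse 1 and 74.0 and 94.7 TPM in mouse 2. The ranges of these 3 genes did not overlap with each other or with any other member.

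A middle group lay several-fold below. Adamts9, a versican-cleaving protease, ranged from 14.7 to 19.3 TPM over the 4 libraries and overlapped with Adamts5, the other major aggrecanase, at 10.9 to 18.1 TPM. Adamts8, also a proteoglycan-cleaving enzyme, ranged from 7.55 to 10.8 TPM, just below the lowest value of Adamts5. The lowest 4 members were Adamts15 (2.18 to 4.74 TPM), Adamts2, the procollagen N-propeptidase (1.55 to 2.84 TPM), Adamts20, a close relative of Adamts9 (1.83 to 2.64 TPM), and Adamts7, which cleaves the cartilage protein COMP (1.71 to 2.05 TPM). Adamts15 was the highest of these 4 in every library, although its range overlapped with those of Adamts2 and Adamts20. The ranges of Adamts2, Adamts20 and Adamts7 overlapped, so the order of these 3 is not settled by these libraries.

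**Figure D1:**
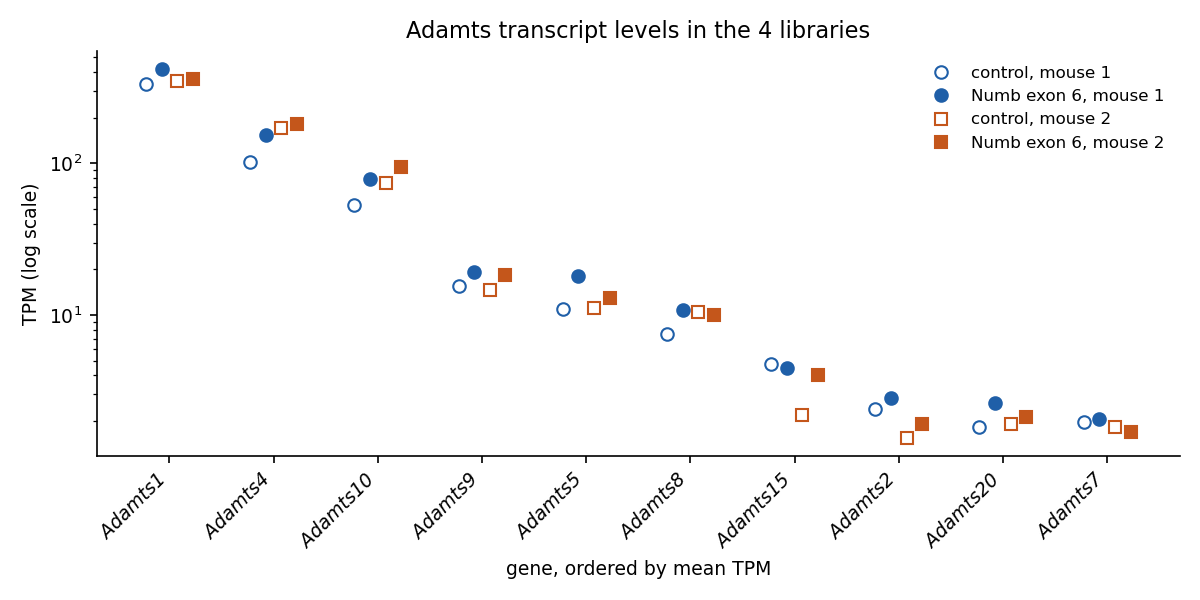
Level of each Adamts gene in TPM (y axis, log scale) in the 4 libraries, with genes ordered by mean TPM on the x axis; circles are mouse 1, squares mouse 2, open symbols the control and filled symbols the Numb exon 6 morpholino. Adamts1 sits at 331 to 417 TPM above all other members, and the lowest 4 members lie between 1.55 and 4.74 TPM.

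The comparison of the morpholinos asked whether these transcripts differ when Numb exon 6 is blocked. The main test compared the groups and left out the pairing of libraries by mouse. A fit with the mouse as a block is given further below. All 10 members passed the filter on low counts, and none passed edgeR's quasi-likelihood test (Benjamini-Hochberg adjustment over 27551 genes, threshold 0.05). This test called 0 of all genes tested (0%), with 1145 (4.16%) at an unadjusted p under 0.05 and 0 of the 10 members among them. All 10 fitted log2 fold changes, Numb exon 6 minus control, lay above 0, from 0.04 for Adamts7 to 0.44 for Adamts5. Their median was 0.23, against 0.005 over all genes tested, and the adjusted p was 0.999 for each. With 1 library left out at a time, 7 to 10 of the 10 values lay above 0. Since the members were chosen with earlier results of these data known, their common sign is a description only.

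Within the mice, 6 of the 10 members were higher with the Numb exon 6 morpholino in both animals, which held for 28.1% of all genes tested. None was lower in both, which held for 27.3% of all genes, and 4 went opposite ways. In 5 members (Adamts1, Adamts5, Adamts9, Adamts10 and Adamts20) both Numb exon 6 libraries lay above both controls, which held for 17.4% of all genes tested. In 0 members both lay below both controls, against 17.1% of all genes. The members' median log2 ratio within a mouse was 0.35 in mouse 1 and 0.14 in mouse 2, against 0.002 in each for all genes tested.

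Among the proteoglycan-cleaving members, Adamts5 showed the highest fold change. On the CPM scale, which is set between libraries by TMM and suits one gene across libraries, it stood at 63.3 and 99.9 in mouse 1 and at 62.5 and 70.9 in mouse 2. The controls were alike, and Numb exon 6 in mouse 1 stood well above the other three libraries. With 2 libraries per group, the fitted difference was 0.44 ± 0.19 on the log2 scale (SE; edgeR adjusted p = 0.999, unadjusted p = 0.0656), with 0.17 without that library and 0.67 without Numb exon 6 of mouse 2.

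Adamts1 had 862 and 1032 CPM in mouse 1 and 874 and 890 CPM in mouse 2. The Numb exon 6 libraries were above the controls in both mice, by a log2 ratio of 0.26 in mouse 1 and of 0.03 in mouse 2. The fold change, on the log2 scale, was 0.15 ± 0.11 (SE; edgeR adjusted p = 0.999), with 0.03 once the mouse 1 library with Numb exon 6 was left out and 0.25 once that of mouse 2 was. Adamts4 had 239 and 345 CPM in mouse 1 and 388 and 408 CPM in mouse 2. The groups overlapped because both libraries of mouse 2 exceeded both of mouse 1. Its log2 fold change was 0.26 ± 0.25 (SE; edgeR adjusted p = 0.999), and it was -0.05 without the control library of mouse 1 and 0.64 without that of mouse 2.

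Adamts9 differed by similar amounts in both animals. It had 38.0 and 44.8 CPM in mouse 1 and 36.5 and 43.9 CPM in mouse 2. The log2 ratios were 0.24 and 0.27, and the log2 fold change was 0.25 ± 0.12 (SE; edgeR adjusted p = 0.999), with 0.21 to 0.28 when each library was left out. Its relative Adamts20 had 6.20 and 8.49 CPM in mouse 1 and 6.25 and 6.69 CPM in mouse 2, with a log2 fold change of 0.28 ± 0.21 (SE; edgeR adjusted p = 0.999). Leaving out Numb exon 6 of mouse 1 brought it to 0.10, and leaving out that of mouse 2 to 0.44.

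Adamts15 and Adamts8 went opposite ways in the 2 mice. Adamts15 had 14.3 and 12.3 CPM in mouse 1 and 5.85 and 11.1 CPM in mouse 2. The control of mouse 2 was the low library, and the log2 ratios within the mice were -0.22 and 0.92. The log2 fold change of 0.21 ± 0.43 (SE) became 0.99 without the control library of mouse 1 and -0.30 without that of mouse 2. Adamts8, its neighbour on chromosome 9, had log2 ratios of 0.44 and -0.09 in mouse 1 and mouse 2, and a log2 fold change of 0.16 ± 0.19 (SE).

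Of the members outside the proteoglycan-cleaving group, Adamts10 showed the highest fold change. It had 95.5 and 132 CPM in mouse 1 and 127 and 156 CPM in mouse 2. Both Numb exon 6 libraries lay above both controls, though the lower of them exceeded the higher control by little. The log2 fold change came to 0.37 ± 0.18 (SE; edgeR adjusted p = 0.999), and to 0.17 without the control library of mouse 1 and 0.58 without that of mouse 2. Adamts2 had log2 ratios of -0.03 and 0.40 within mouse 1 and mouse 2, and Adamts7 of 0.13 and -0.06. Their log2 fold changes were 0.15 ± 0.30 and 0.04 ± 0.24 (SE).

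The libraries of a mouse are paired, and with the pairing in the fit the SE was smaller for each of the 10 members. The block leaves 1 residual degree of freedom per gene, against 2 in the main fit. Its SE therefore leans more on the spread of other genes. With the mouse as a block, the log2 fold changes of Adamts10, Adamts5, Adamts4, Adamts9 and Adamts1 were 0.38 ± 0.09, 0.42 ± 0.14, 0.30 ± 0.13, 0.25 ± 0.10 and 0.14 ± 0.08 (SE). None of the 10 passed with the block either (edgeR adjusted p from 0.796 to 0.994). That fit called 0 of all genes tested (0%). Adamts10 and Adamts5 had unadjusted edgeR p values of 0.0103 and 0.0339 in it, so 2 of 10 members lay under 0.05, both higher with Numb exon 6, against 6.09% of all genes in either direction and 3.41% that were higher. DESeq2 called 0 of the 10 members as well, without the block (1 at an unadjusted p under 0.05, while 0.236% of all genes were called) and with it (3, and 0.577%). Limma-voom called 0 members and 0% of all genes, with 0 members at an unadjusted p under 0.05. EdgeR without a filter on low counts called 0 members and 0.0221% of all genes, and with a CPM minimum of 5 in 2 libraries 0 of the 9 members tested and 0.00993%. It called 0 members and 0.00328% of all genes without the control of mouse 1, and 0 members and 0.00329% without Numb exon 6 of mouse 2.

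**Figure D2:**
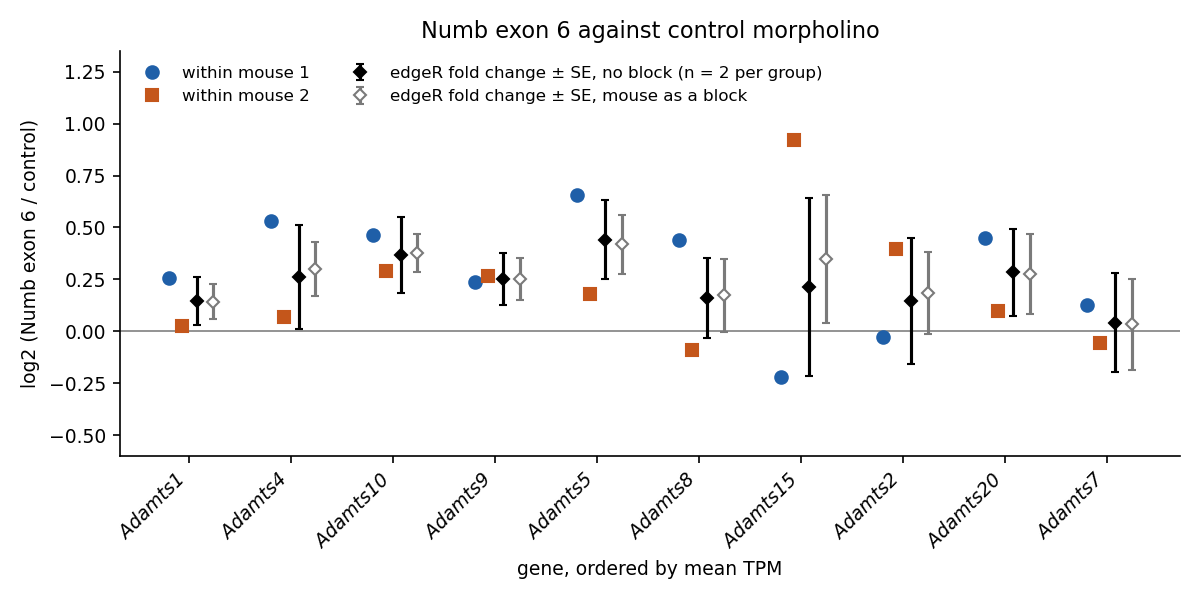
Difference between the morpholinos for each Adamts gene (x axis, ordered by mean TPM) as log2 of Numb exon 6 over control (y axis): circles and squares are the ratios within mouse 1 and mouse 2, black diamonds the edgeR fold change without a block and open diamonds that with the mouse as a block, with bars of ± 1 SE. Adamts1, Adamts4, Adamts10, Adamts9, Adamts5 and Adamts20 lie above 0 in both mice, and Adamts15 shows the widest gap between the mice.

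**Figure D3:**
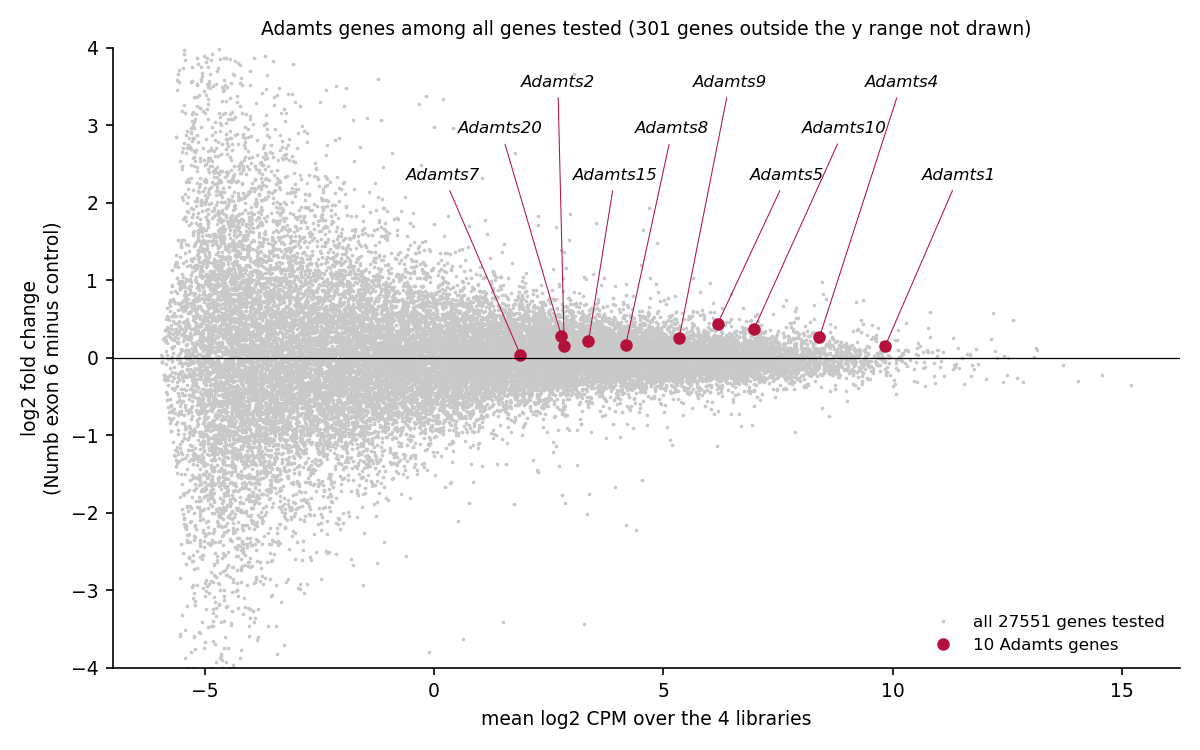
Fold change (log2, Numb exon 6 minus control, y axis) against the mean log2 CPM over the 4 libraries (x axis) for the 27551 genes tested in grey, with the 10 Adamts genes in red; 301 genes beyond a log2 fold change of 4 in size are not drawn. The Adamts genes lie above 0, at 0.04 to 0.44, within the cloud of all genes.

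The mice were compared by values only, 1 animal against 1. In 4 of the 10 members (Adamts4, Adamts15, Adamts2 and Adamts7) the libraries of the mice did not overlap in CPM, which held for 39.7% of all genes tested, so this share is near the background. Adamts4 was higher in mouse 2, by a log2 ratio of 0.70 between the controls and of 0.24 between the Numb exon 6 libraries. Adamts15 was lower in mouse 2, by log2 ratios of -1.28 and -0.15, and Adamts2 by -0.73 and -0.31. Adamts1 was nearly level between the controls, with a log2 ratio of 0.02.

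The other 9 Adamts proteases were scarce, with a summed level of 7.47 to 8.78 TPM. None passed the edgeR test, and 0 had an unadjusted p under 0.05. In both mice 5 of the 9 were higher and 1 was lower, against 28.1% and 27.3% of all genes tested. Their median was 0.49 on the log2 scale, which takes in genes under 0.1 TPM in most libraries. Adamts14, a procollagen N-propeptidase like Adamts2, led at 2.61 to 3.92 TPM, with a log2 fold change of 0.18 ± 0.26 (SE). Adamts12, a relative of Adamts7 that also cleaves COMP, had 5.57 and 6.39 CPM in mouse 1 and 4.40 and 8.48 CPM in mouse 2 (log2 fold change 0.58 ± 0.25, SE). The value of Adamts16 (2.25 ± 1.3, SE) rested on 1 library, Numb exon 6 of mouse 1, with 153 estimated counts against 8 to 18 in the others.

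The Adamts-like proteins, matrix proteins related to this family that lack the protease domain, showed no shared direction. In both mice 0 of the 7 genes were higher and 3 were lower, against 28.1% and 27.3% of all genes tested. Their median was -0.02 on the log2 scale, and none passed the edgeR test (0 at an unadjusted p under 0.05). Thsd4, which binds fibrillin, was the most abundant at 47.5 to 56.4 TPM, with a log2 fold change of -0.12 ± 0.13 (SE). Adamtsl1 ranged from 30.5 to 49.0 TPM, with -0.01 ± 0.25 (SE). The smallest p values belonged to Adamtsl3 (0.95 ± 0.55, SE), for which Numb exon 6 of mouse 1 was the high library (2.45 CPM against 0.776 to 0.952), and Papln, the papilin gene (-0.55 ± 0.35, SE).

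Of 27 genes for reported substrates of these proteases, 13 were higher in both mice and 4 were lower, against 28.1% and 27.3% of all genes tested. The median fold change was 0.16 on the log2 scale. In the edgeR test 0 passed and 1 had an unadjusted p under 0.05, which 4.16% of all genes tested had. The substrate gene under 0.05 was Tfpi2, an inhibitor of serine proteases, at 23.9 and 35.5 CPM in mouse 1 and 26.7 and 32.7 CPM in mouse 2 (log2 fold change 0.43 ± 0.14, SE; unadjusted p = 0.0273). Notch1, the receptor through which Adamts1 is described to act, had 232 and 209 CPM in mouse 1 and 296 and 232 CPM in mouse 2. It was lower in both mice while the groups overlapped, with a log2 fold change of -0.26 ± 0.16 (SE; edgeR adjusted p = 0.999). Without the control of mouse 1 it was -0.42, and without that of mouse 2 it was -0.08. The Notch ligand gene Dll1 had 11.0 and 16.4 CPM in mouse 1 and 14.5 and 19.5 CPM in mouse 2 (log2 fold change 0.49 ± 0.21, SE). Versican, encoded by Vcan, had log2 ratios of -0.27 and 0.02 within mouse 1 and mouse 2 (-0.15 ± 0.28, SE). The syndecan gene Sdc4 was the most abundant of the list at 6499 to 7673 TPM, with a log2 fold change of 0.10 ± 0.09 (SE), and Col3a1, a fibrillar collagen, followed at 267 to 390 TPM, with 0.12 ± 0.20 (SE).

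Inhibitors, activators and cofactors numbered 19, of which 3 were higher in both mice and 5 were lower, against 28.1% and 27.3% of all genes tested. The median fold change was 0.003 on the log2 scale. In the edgeR test 0 passed, and 2 had an unadjusted p under 0.05, both lower with the Numb exon 6 morpholino (1.66% of all genes were). Cd44, the hyaluronan receptor, had 1280 and 983 CPM in mouse 1 and 1256 and 854 CPM in mouse 2. Both Numb exon 6 libraries lay below both controls, and the log2 fold change was -0.47 ± 0.11 (SE; unadjusted p = 0.0083, edgeR adjusted p = 0.999). The other was Pcsk5, a proprotein convertase, with a log2 fold change of -0.31 ± 0.12 (SE; unadjusted p = 0.0419). Furin, the convertase that removes ADAMTS prodomains, had -0.15 ± 0.17 (SE). Timp3 stood at 230 to 267 TPM, the same order as Adamts1, and had log2 ratios of 0.08 and -0.04 within mouse 1 and mouse 2 (0.02 ± 0.12, SE).

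**Figure D4:**
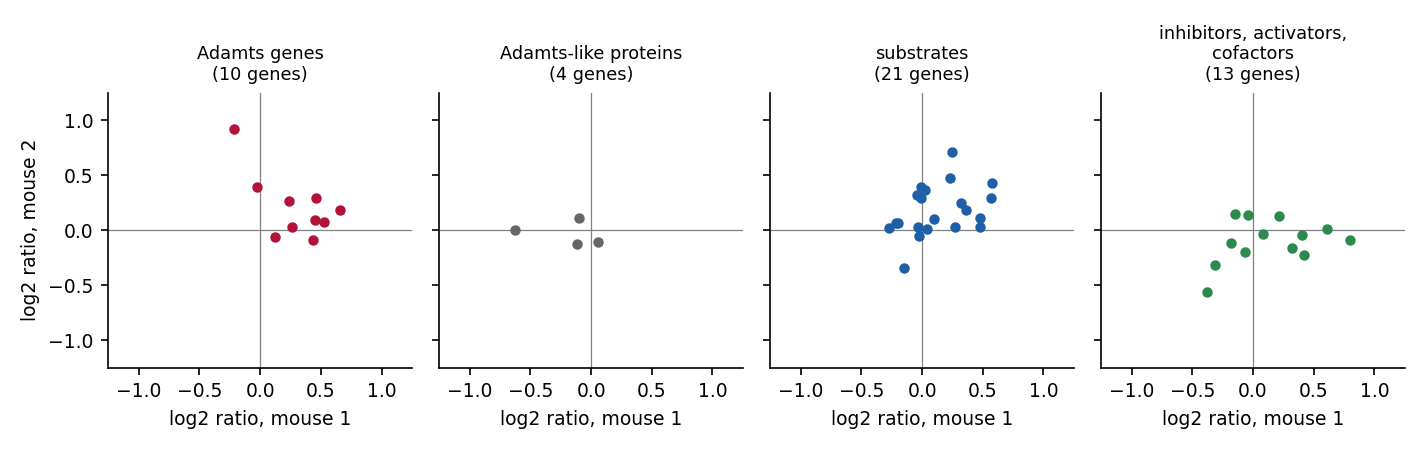
Log2 ratio of Numb exon 6 over control within mouse 1 (x axis) and mouse 2 (y axis), each point a gene with a mean of at least 1 TPM, for the 10 Adamts genes, 4 Adamts-like genes, 21 substrate genes and 13 genes of inhibitors, activators and cofactors. Of the Adamts genes 6 lie above 0 on both axes and 0 below 0 on both.

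The genes with the pattern most like that of Adamts1 over the 4 libraries were sought next. Among 8468 other genes that averaged 3 or more in log2 CPM, the 4 with the smallest root mean square difference from it in centred log2 CPM were Vps26a, a retromer subunit, Arcn1, a subunit of the COPI coat, the zinc finger gene Zscan29, and Lman2l, a lectin of the secretory pathway. Their differences from Adamts1 were 0.0079, 0.0086, 0.0095 and 0.010 on the log2 scale. They were picked for this likeness out of many genes over 4 libraries, so it is a description only. Like Adamts1, each peaked with Numb exon 6 in mouse 1 and was nearly level in the other libraries.

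That library held the highest CPM of 6 of the 10 members, and the control of mouse 1 the lowest of 5. The matching shares over all genes tested were not computed, so these counts are a description only. In the control of mouse 1 the rRNA-like genes CT010467.1 and AY036118 held 8.95% of the counts, against 5.00% to 6.53% in the others. Marker sums below are in TPM, without TMM scaling between libraries. The counts of markers higher or lower in both mice rest on TMM-scaled CPM. The 10 satellite cell markers summed to 10044 and 10912 TPM in the controls and to 11853 and 12026 TPM in the Numb exon 6 libraries. Sdc4, which is also in the substrate list, was the most abundant of them and made up most of each sum. In both mice 7 of the 10 were higher and 0 lower, while 28.1% of all genes tested were higher and 27.3% lower. Pax7 stood at 37.0 to 59.7 TPM and Myod1 at 1247 to 1543 TPM, so markers of the labelled cell type were abundant. Markers of other cells were present as well, and none of these listed markers was at 0 in any library. The 10 endothelial markers summed to 148 TPM in that library and to 97.8 to 105 TPM in the others, and 5 of them were higher and 0 lower in both mice. The 10 markers of fibro-adipogenic progenitors summed to 934 to 1054 TPM in the controls and 1097 to 1160 TPM in the Numb exon 6 libraries, and 6 were higher and 0 lower in both mice. The 10 of smooth muscle and pericytes summed to 195 to 237 TPM and 215 to 268 TPM (7 higher, 0 lower), and the 7 of tenocytes to 53.9 to 54.2 TPM and 61.2 to 69.0 TPM (5 higher, 1 lower). The 12 leukocyte markers summed to 30.6 and 41.5 TPM in mouse 1 and to 36.4 and 131 TPM in mouse 2. Of these 9 were higher and 2 lower in both mice, and the median was 1.49 on the log2 scale. An unadjusted edgeR p under 0.05 was reached by 4 of the 12, all higher. Of all 27551 genes tested, 688 were higher at that p. The 7 glial markers summed to 64.4 to 79.7 TPM in the controls and 112 to 142 TPM with Numb exon 6 (3 higher, 0 lower). Pmp22 was the most abundant of them, with a log2 fold change of 0.97, and 4 of the 7 averaged at least 1 TPM. The median log2 ratio of the 7 was 0.73 in mouse 1 and -0.14 in mouse 2. The 8 of myofibres summed to 149 to 156 TPM in the controls and 166 to 174 TPM with Numb exon 6 (3 higher, 1 lower). The 6 erythroid ones summed to 538 and 928 TPM in mouse 1 and 1532 and 1733 TPM in mouse 2 (5 higher, 0 lower). The part of these cells and of the rRNA-like share in the Adamts values was not tested, and in bulk RNA fewer cells of a type and less RNA per cell cannot be told apart.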

How the data were processed

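Gene expression was measured by RNA sequencing in 4 libraries, each from 5 ng of RNA amplified by the SMART-Seq2 method, per the labels' protocols. HISAT2 2.1.0, StringTie 1.3.6 and the GRCm38 build are named in the submitters' processing notes; the sources used here do not state the annotation or how coverage became counts. The authors' deposited estimated counts are whole numbers that sum to 230431665 to 355411827 per library. They were derived from coverage, so they cannot be read as fragments, and no counting interval is given. TPM was deposited by the authors and corrects for transcript length and library size.

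Groups and mice came from the labels. The main test was edgeR 4.0.16 in R 4.3.3 (quasi-likelihood, robust, TMM, default expression filter by group, no block), with Benjamini-Hochberg adjustment over 27551 genes at 0.05. The SE was derived from its statistic. A ratio within a mouse subtracts the log2 CPM of its libraries, computed with a prior count of 2. Libraries with the same number come from the same mouse, so the mouse pairs them; their deviations from the group means correlated at 0.40 across genes averaging at least 3 in log2 CPM and at 0.06 across all tested. The alternatives were the mouse block, other scaling factors and filters, DESeq2 1.42.0, limma 3.58.1 (voom, log2(TPM + 1), log2(TPM + 0.1)), counts divided by 4, and each library left out. The edgeR fits, with and without the block, were run on simulated data with known fold changes. The simulated libraries were independent and held no mouse effect, so this check does not bear on the pairing.

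The 10 members, the gene lists and the tests were chosen with earlier results of these data known. The genes named were the members, 5 fixed genes (Notch1, Timp3, Furin, Vcan and Sdc4), per related list the 2 most abundant and the 2 with the smallest p, and the 4 most similar to Adamts1. Of marker lists the sums are given in place of the 2 most abundant members, with Pax7 and Myod1. Coordinates and sequences were read from the GENCODE vM21 annotation of GRCm38, where all 10 members are present, with the longest coding transcript of each. Splicing of Numb was not analysed here. A result on overlapping genes is not reported here.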

Additional observations from a re-analysis of the deposited data

How the results depend on the processing

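No setting called any of the 10 Adamts genes. Over all genes, edgeR called 10 without a filter on low counts and 1 when 2 libraries had to reach a CPM of 5 (Adamts7 was not tested there), DESeq2 called 65, and 159 with the mouse as a replicate block, and 0 to 1 were called when 1 library was left out. A group then holds 1 library, which is assumed to vary like the other group. The edgeR fit with the mouse as a replicate block, upper quartile factors, library totals alone, DESeq2 size factors, limma-voom, both limma fits on TPM and counts divided by 4 called 0, as the main test did. Of 159 fold changes of single Adamts members under these settings, 149 kept their sign and 10 did not. Timp3, Vcan and Furin, whose changes of sign are also given below, are not among the 159. Adamts7 was -0.0057 with upper quartile factors, -0.017 on log2(TPM + 1) and -0.026 on log2(TPM + 0.1), and Timp3 was -0.022 with upper quartile factors. With each library left out, the log2 fold changes ran from -0.046 to 0.64 for Adamts4, from -0.033 to 0.37 for Adamts8, from -0.30 to 0.99 for Adamts15, from -0.18 to 0.56 for Adamts2, from -0.12 to 0.18 for Adamts7, from -0.47 to 0.25 for Vcan, from -0.093 to 0.13 for Timp3 and from -0.32 to 0.0021 for Furin. The cause of these changes was not tested. With 2 animals the errors stayed large against the fold changes of the scarcer members. In the main test this also held for the abundant Adamts4 (0.26 ± 0.25, SE) and Adamts1 (0.15 ± 0.11, SE).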
